A study of Mus musculus with 24 samples.

Results

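The 10 genes of the unfolded protein response described here are Hspa5, Herpud1, Ddit3, Atf3, Atf4, Xbp1, Dnajb9, Sdf2l1, Trib3 and Chac1. They were taken by symbol in GENCODE M21 from the 54532 Ensembl genes counted in each sample, where they fill 11 rows because Ddit3 has a second entry with 0 counts in all 24 samples. Trex1-/- mice on a C57BL/6J background gave RNA-Seq samples of 4 tissues (tongue, muscle, stomach and heart), with 3 samples from controls and 3 from SN-011-treated mice in each. SN-011 is a small-molecule antagonist of STING, the adaptor that relays cytosolic DNA sensing by cGAS to type I interferon. The series text gives SN-011 at 5 mg/kg, 3 times per week for 4 weeks, with untreated controls, whereas the study's methods give 10 mg/kg daily for 2 weeks from 1 month of age, with a vehicle of 1% Tween 80 in PBS. All groups carry the Trex1 deletion and no wild-type sample was analysed here, so the values compare treated with control knockout mice and do not place either beside normal tissue. The labels do not say whether every sample of a group came from a separate mouse, so p-values measure the spread between these samples, part of which may be technical. The controls of each tissue came from more than 1 mouse, since they include both sexes.

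The unfolded protein response is the program by which a cell answers unfolded proteins in the endoplasmic reticulum (ER). Its sensors are IRE1 (Ern1), which splices Xbp1 mRNA, PERK (Eif2ak3), which slows translation and lets Atf4 mRNA be translated, and ATF6, which is cut in the Golgi to release a transcription factor. XBP1 and ATF6 raise ER chaperones and degradation factors, and ATF4 raises amino acid genes and, under lasting stress, the transcription factor CHOP (Ddit3). Secretory cells such as plasma cells and gastric chief cells run the chaperone arm at a high level. STING itself resides in the ER membrane. Counts of Xbp1 mRNA cannot separate its spliced from its unspliced form, and the activity of PERK and ATF4 is set largely at the protein level.

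The promoters of 4 members are shown because they hold sequence elements through which this response acts, as RefSeq sequence of GRCm38.p6, before the annotated start and 5′ to 3′ on the strand of the gene. Capitals mark the elements. Herpud1 (chr8:94386179-94386428, plus strand) holds the ERSE-II and the C/EBP-ATF element TTGCATCA, and Hspa5 (chr2:34771840-34772089, plus strand) holds the ER stress response element (ERSE). Atf3 (chr1:191183390-191183489, minus strand) and Chac1 (chr2:119351003-119351102, plus strand) hold the C/EBP-ATF element, a site bound by ATF4 with C/EBP partners. The ERSE of Hspa5 begins 65 bases before the start and the ERSE-II of Herpud1 52 bases before it, while the C/EBP-ATF element begins 112 (Herpud1), 110 (Atf3) and 193 (Chac1) bases before it.
Herpud1: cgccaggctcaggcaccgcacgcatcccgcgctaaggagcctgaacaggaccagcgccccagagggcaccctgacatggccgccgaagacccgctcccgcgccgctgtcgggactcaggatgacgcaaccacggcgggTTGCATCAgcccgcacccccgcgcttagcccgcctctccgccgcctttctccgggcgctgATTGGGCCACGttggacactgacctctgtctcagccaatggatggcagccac
Hspa5: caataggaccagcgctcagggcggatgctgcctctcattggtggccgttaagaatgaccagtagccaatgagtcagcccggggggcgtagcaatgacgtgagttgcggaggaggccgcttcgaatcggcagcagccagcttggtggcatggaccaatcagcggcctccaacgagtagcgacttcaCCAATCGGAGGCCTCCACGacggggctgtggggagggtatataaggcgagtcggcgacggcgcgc
Atf3: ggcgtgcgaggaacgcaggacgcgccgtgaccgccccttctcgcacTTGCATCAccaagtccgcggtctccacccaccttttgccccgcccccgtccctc
Chac1: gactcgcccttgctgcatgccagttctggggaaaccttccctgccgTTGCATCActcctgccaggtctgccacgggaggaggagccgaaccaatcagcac
All 10 members matched 1 promoter window each of 300 bases, 250 before to 50 after the start, and both strands were searched. The ERSE, read as CCAAT and CCACG parted by any 9 bases, was in 0.119% of all 32851 windows, the ERSE-II, read as ATTGG and CCACG parted by any 1 base, in 0.0365%, and the C/EBP-ATF element in 0.895%. The UPRE core TGACGTGG was in 0.676% of windows and in 0 of the members. The ERSE and ERSE-II share the letters CCACG, with which the reverse complement of the UPRE core also begins. A match is a description of these letters and shows no binding, and the RefSeq starts used here are not always those of the GENCODE genes that were counted. The RefSeq start of Atf3 lies 34706 bases inside its GENCODE gene, which has an earlier start, and 7 bases from the nearest GENCODE transcript start, and that of Hspa5 lies 120 bases inside its gene and 5 bases from a transcript start.

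Total counts per sample were 14253416 to 18443329, and 3 counts, taken as the floor for counting error, corresponded to a CPM (count relative to the library total) of 0.163 to 0.21. Several libraries stood apart. In muscle SN-011 replicate 2 only 11546 genes were detected, whereas the other libraries had 19798 to 24264. Control replicate 1 of every tissue reads as female, by 3060 to 13811 counts of Xist and 0 to 3 of Ddx3y, and all other samples read as male. The deleted gene, Trex1, was at 0 counts throughout, which does not show the genotype because its locus lies over that of Atrip. Gastric marker RNA was present outside the stomach in some controls. The summed CPM of 11 gastric marker genes was 3328 and 2554 in tongue control replicates 2 and 3, 3185 and 306.9 in heart control replicates 2 and 3, and 758 and 313 in muscle control replicates 2 and 3, whereas it was 8.46 to 54.8 in the other samples of these tissues. The labelled tissues were otherwise borne out by their markers, since cardiomyocyte, gastric, skeletal muscle and squamous epithelial genes were each highest in the heart, stomach, muscle and tongue, respectively.

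In control samples the 10 genes differed widely in level between tissues. Levels are given as CPM per kb of exon, mean ± SD with n = 3, so that genes can be set side by side. Of the 60 pairs of tissues over the 10 genes, 35 differed at an adjusted p under 0.05 in a joint fit of the 12 control samples, against 43.1% of all gene and tissue pairs tested. The ER chaperone BiP, encoded by Hspa5 (ENSMUSG00000026864), was at 101 ± 22.8 in the stomach, followed by heart (81.6 ± 6.62), tongue (46.8 ± 11.7) and muscle (43.6 ± 6.44). Stomach and heart did not differ beyond their spread (adjusted p = 0.323), nor did tongue and muscle (adjusted p = 0.761), whereas the heart was above the tongue (adjusted p = 0.0268). Xbp1, the transcription factor of the IRE1 arm, was at 94.0 ± 16.6 in the stomach and at 26.0 ± 1.67 to 36.5 ± 13.7 in the other tissues, and the neighbouring step from stomach to tongue passed the test (adjusted p = 0.00212). Sdf2l1, a BiP-associated ER luminal protein, was also highest in the stomach, at 25.2 ± 3.40, and lowest in the muscle, at 4.28 ± 1.47 (adjusted p = 6.32e-05).

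The genes of the ATF4 and CHOP arm had other peaks. Ddit3, which encodes the stress transcription factor CHOP, was at 89.5 ± 7.04 in the heart, followed by tongue (26.1 ± 4.77), muscle (11.4 ± 2.40) and stomach (7.64 ± 1.57), and all 6 of its tissue pairs differed. The step from muscle to stomach was lost with the replicate block (adjusted p = 0.0559), with DESeq2 size factors (adjusted p = 0.0539) and with no filter on low counts (adjusted p = 0.150). The heart was 11.7-fold above the stomach for Ddit3 (log2 difference 3.55 ± 0.23, standard error, adjusted p = 1.11e-06). Trib3, a pseudokinase induced by CHOP and ATF4, ranged from 10.6 ± 0.21 (heart) to 0.92 ± 0.26 (stomach), and the heart did not differ from the tongue, at 6.59 ± 4.89, beyond the spread (adjusted p = 0.281). Chac1, a glutathione-degrading enzyme downstream of ATF4, was at 203 ± 98.7 in the muscle, followed by heart (9.62 ± 3.06), tongue (6.96 ± 2.04) and stomach (0.338 ± 0.296). Muscle was 21.1-fold above the heart (adjusted p = 6.02e-05), and Chac1 in muscle was the highest mean of any member in any tissue on this scale.

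Atf4 ranged from 55.9 ± 3.60 in the heart to 142 ± 8.15 in the muscle and neighbouring tissues in its order did not differ beyond their spread. For Herpud1, an ER membrane protein of the degradation machinery, the order ran from muscle at 87.9 ± 8.34 over stomach and heart to tongue at 38.1 ± 6.65, again with no neighbouring pair past the threshold, although heart over tongue passed with the replicate block (adjusted p = 0.0208) and with total counts alone (adjusted p = 0.0308). Dnajb9, an ER co-chaperone of BiP, was at 23.4 ± 6.78 in the muscle and above the heart at 10.7 ± 0.86 (adjusted p = 0.00542), while heart, stomach and tongue did not differ from their neighbours. Atf3, a stress-induced transcription factor, was at 21.1 ± 5.70 in the stomach and 5.93 ± 1.69 in the muscle (adjusted p = 0.00734) and no neighbouring step passed, while stomach over tongue passed with the replicate block (adjusted p = 0.0495). The muscle values depend on the scaling. The muscle libraries stand apart in makeup, since their 10 most counted genes took 23.8 to 28.6% of counts, against 7.85 to 19.9% in the other tissues. With total counts alone in place of TMM, the median gene of the muscle was lower by 0.85 to 0.86 on the log2 scale against the other tissues, and 6 of the 60 pairs turned, all with muscle. Of these, muscle over stomach for Ddit3 had passed the test (0.58, and −0.31 after the change), while muscle was then below stomach and heart for Herpud1, below stomach and tongue for Atf4, and below heart for Xbp1. In all, 5 calls were lost with total counts alone, that of Ddit3 and 4 that kept their order, which were Dnajb9 in muscle over heart (from 1.14 to 0.27, adjusted p = 0.374) and over stomach (0.40, adjusted p = 0.180), Herpud1 in muscle over tongue (0.35, adjusted p = 0.256) and Atf4 in muscle over heart (0.48, adjusted p = 0.136), and 7 pairs were newly called. Chac1 stayed higher in the muscle than in the heart, by 3.53 (adjusted p = 0.000102). The heart, muscle and tongue controls include the libraries with gastric RNA, whose part in these levels was not tested.

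**Figure D1:**
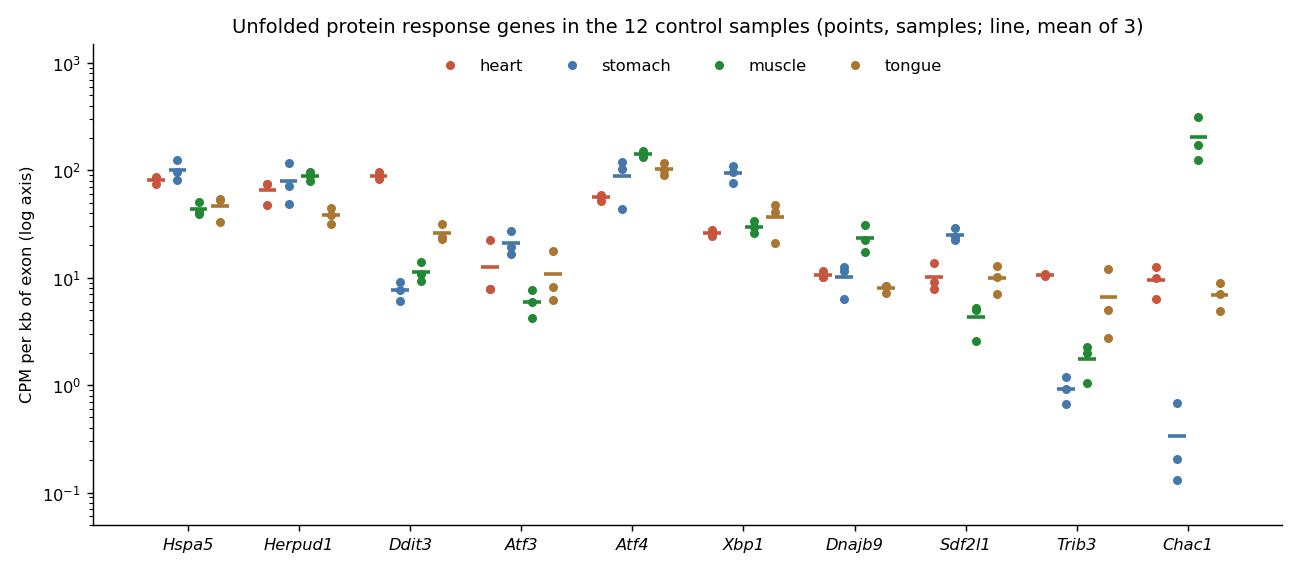
Level of each gene in the 12 control samples, in CPM per kb of exon on a log axis, with points for samples, colours for tissues and a line at the mean of 3. By their means, Ddit3 and Trib3 sit highest in the heart, Xbp1 and Sdf2l1 in the stomach, and Chac1 spans from 0.338 in the stomach to 203 in the muscle. For Trib3, tongue control replicate 3 lies at 12.1, above all heart controls (10.4 to 10.8).

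After SN-011, Herpud1 in the heart was the only member whose difference from the controls passed edgeR's quasi-likelihood test in any of the 4 tissues. From here on, values of samples are CPM, scaled by TMM within each tissue, and the fold changes are log2, SN-011 over control, with their standard errors. In the heart, 1 of 10 members was called, as higher, against 0.848% of the 16151 genes tested (0.52% called higher and 0.328% lower). By the same test 0 of 10 were called in each of the other tissues, against 0% of all genes for stomach and tongue and 0.0141% for muscle (0.00704% higher and 0.00704% lower). At an unadjusted p under 0.05, the heart had 4 members higher and 0 lower (10.8% and 11.6% of all genes, 22.4% together), the stomach 1 and 1 (13.2% and 11.4%, 24.6% together), the muscle 5 and 0 (8.96% and 5.8%, 14.8% together) and the tongue 0 and 1 (5.17% and 7.33%, 12.5% together). The edgeR exact test called 1 member for heart, 2 for stomach (Ddit3 higher, Atf3 lower), 4 for muscle (Herpud1, Atf3, Atf4 and Dnajb9, all higher) and 0 for tongue, against 5.68%, 10.8%, 3.37% and 1.53% of all genes. DESeq2 called the same members, against 8.43%, 14%, 6.21% and 2.52% of all genes.

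**Figure D2:**
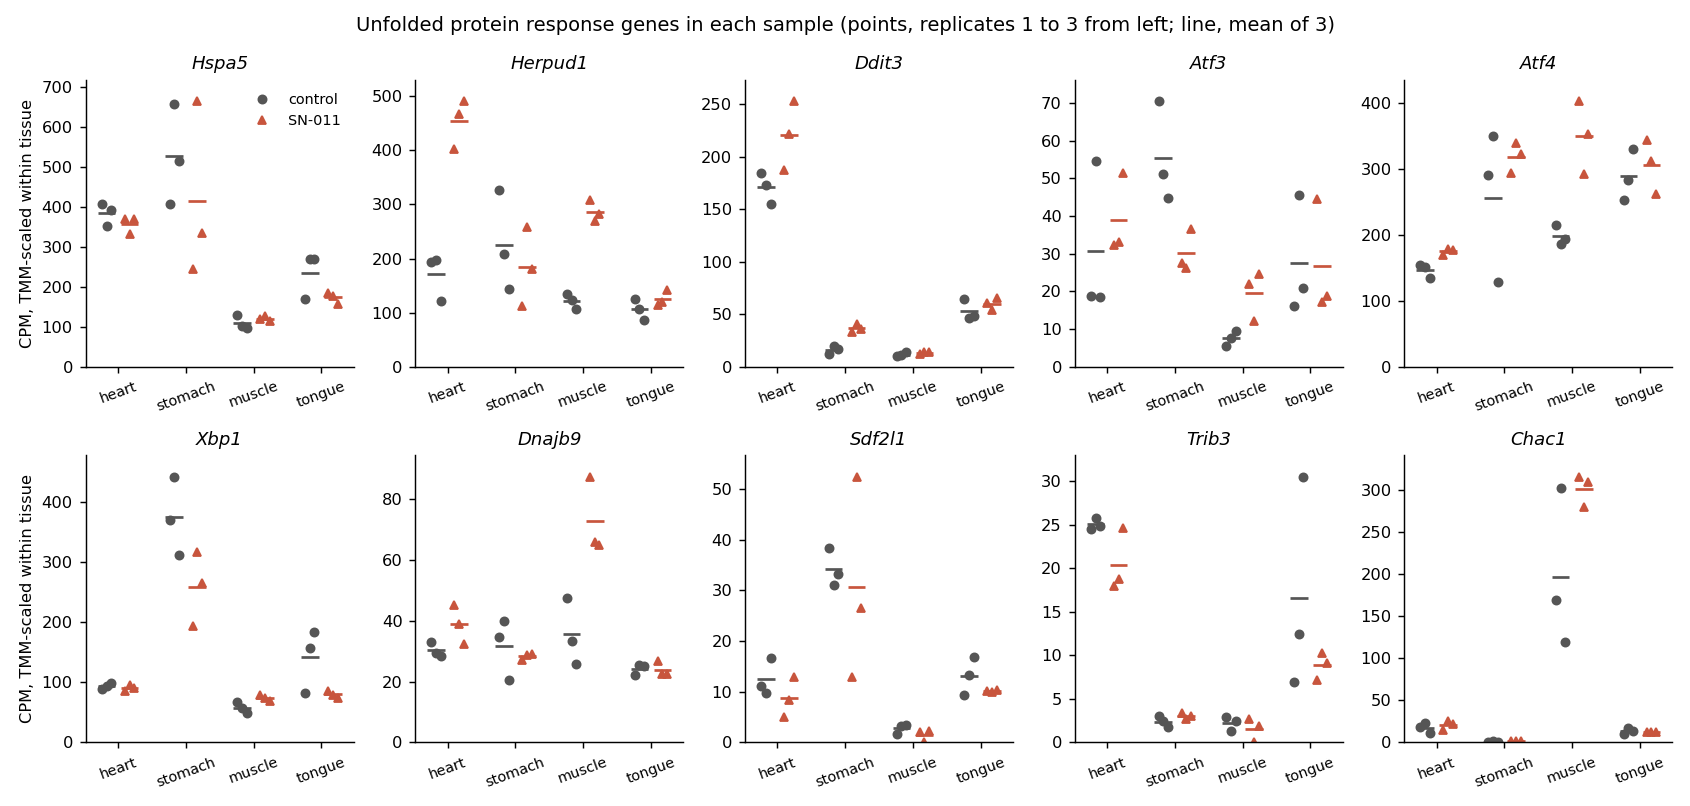
CPM of each gene in each of the 24 samples, with controls as circles, SN-011 samples as triangles, replicates 1 to 3 from left to right and a line at each mean of 3. Herpud1 is higher in all 3 SN-011 samples of the heart and of the muscle, and Ddit3 in all 3 of the stomach.

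Herpud1 (ENSMUSG00000031770, GRCm38 chromosome 8, 94386438 to 94395377) encodes an ER membrane protein that recruits unfolded proteins to degradation. In the heart it was at 193, 197 and 122 CPM in control replicates 1 to 3 and at 402, 468 and 491 in SN-011 replicates 1 to 3. All SN-011 samples lay above all controls, with control replicate 3 the lowest. Herpud1 thus rose 2.66-fold (log2 fold change 1.41 ± 0.19, adjusted p = 0.0275). The summed CPM of 5 cardiomyocyte markers was also higher in these SN-011 samples, at 31662 to 39086 against 22114 to 31561, with 2 of 5 past an unadjusted p of 0.05 and 0 called, and its part in the result was not tested. The call was lost without any 1 of the SN-011 samples (adjusted p = 0.0773 to 0.157) and in the joint fit of all tissues (adjusted p = 0.164), with log2 fold changes of 1.34 to 1.495. The fit without SN-011 replicate 2 called 0.00598% of all genes and the joint fit 0.00507%. The call held without the female control (log2 fold change 1.497, adjusted p = 0.0346, with 1.1% of all genes called).

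In the muscle Herpud1 was at 135, 123 and 108 CPM in controls and at 309, 269 and 282 in SN-011 samples, again without overlap. Its log2 fold change of 1.23 ± 0.13 missed the threshold (adjusted p = 0.0750). It passed without SN-011 replicate 2, the library with few genes (1.28, adjusted p = 0.0158), without the female control (1.31, adjusted p = 0.0430, with 0.467% of all genes called), and in the exact test (adjusted p = 5.82e-08). With total counts alone as the scaling, which lowered the median gene by 0.23 in the muscle and 0.15 in the heart and raised it by 0.17 in the stomach, Herpud1 was at 1.00 in the muscle and 1.27 in the heart. The summed CPM of 5 skeletal muscle markers was 116942 to 131431 in muscle controls and 145463 to 167776 in SN-011 samples, with 2 of 5 past an unadjusted p of 0.05 and 0 called, and its part in the muscle values was not tested. In the tongue Herpud1 was at 124, 106 and 86.9 CPM in controls and 113, 120 and 142 in SN-011 samples, and in the stomach at 326, 208 and 143 against 112, 258 and 181. The groups overlapped in both tissues, with log2 fold changes of 0.24 ± 0.17 and −0.30 ± 0.41.

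Hspa5 (chromosome 2, 34771970 to 34777547), the master chaperone and the usual marker of the response, was at 407, 353 and 392 CPM in heart controls and 370, 331 and 369 in heart SN-011 samples. In the muscle it was at 131, 102 and 95.8 against 120, 128 and 114. The groups overlapped in both, with log2 fold changes of −0.11 ± 0.12 and 0.14 ± 0.15. In the stomach Hspa5 was at 406, 658 and 515 CPM in controls and 245, 665 and 333 in SN-011 samples, with SN-011 replicate 2 just above the highest control (−0.35 ± 0.43, and −0.88 ± 0.40 without that sample, adjusted p = 0.210). That sample also had the most chief cell marker RNA of the SN-011 samples, 84734 summed CPM against 17482 and 23356. The controls did not share this order. Their chief cell sums were 59251, 32109 and 19881 in replicates 1 to 3, and replicate 1, with the most, had the lowest Hspa5. The part of cell makeup in these values was not tested.

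Dnajb9 (chromosome 12, 44205559 to 44210326, with 14 exon bases also in Mir5627 on the opposite strand) in the muscle was at 47.4, 33.4 and 25.7 CPM in controls and 87.3, 65.7 and 64.7 in SN-011 samples. All SN-011 samples were higher, by a log2 fold change of 1.03 ± 0.25 (adjusted p = 0.185). In the heart it was at 33.1, 29.3 and 28.4 against 45.3, 38.7 and 32.4, where 1 SN-011 sample lay below the highest control (0.36 ± 0.15, adjusted p = 0.196). Its log2 fold changes were −0.16 ± 0.28 in the stomach and −0.02 ± 0.14 in the tongue. Sdf2l1 (chromosome 16, 17130138 to 17132383) overlapped between groups in every tissue, with log2 fold changes from −0.90 ± 1.25 in the muscle to −0.16 ± 0.44 in the stomach. The muscle value includes a count of 0 in SN-011 replicate 2 and was −0.33 without that library.

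Ddit3 (ENSMUSG00000025408, chromosome 10, 127290774 to 127296288), which encodes CHOP, was at 12.3, 19.4 and 16.6 CPM in stomach controls and at 33.3, 40.7 and 35.9 in stomach SN-011 samples. All SN-011 samples were above all controls, by a log2 fold change of 1.18 ± 0.25 that missed the threshold (adjusted p = 0.0715). The exact test called it (adjusted p = 0.00504), as did the joint fit of all tissues (adjusted p = 0.000824, with 13.9% of all genes called), and leaving out 1 library gave 1.00 to 1.34. In the heart, where Ddit3 was highest, it was at 184, 173 and 155 CPM in controls and 187, 222 and 253 in SN-011 samples. These groups did not overlap either, but SN-011 replicate 1 was only just above control replicate 1 (0.37 ± 0.14, adjusted p = 0.173). The log2 fold changes in muscle and tongue were 0.21 ± 0.22 and 0.17 ± 0.17, with overlap. Of the exon bases of Ddit3, 105 are shared with its second entry on the same strand and 68 with Mars and 13 with Gm4189 on the opposite strand, and read pairs there could be split or left out.

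In the stomach the share of mitochondrial counts was 3.00 to 7.25% in controls and 7.08 to 14.9% in SN-011 samples. The summed CPM of 8 plasma cell markers was 2631 to 5134 in controls and 1290 to 1982 in SN-011 samples, with 6 of 8 lower at an unadjusted p under 0.05. That of 4 squamous epithelial markers was 68.4 to 138 and 309 to 808, with all 3 that could be tested higher at an unadjusted p under 0.05, and 0 genes of either list passed the adjusted threshold. The groups did not overlap in either list. These measures moved with Ddit3 and Atf3 in the stomach and their part in those values was not tested. In bulk samples, fewer cells of a type and less RNA per cell cannot be told apart.

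Atf4 (chromosome 15, 80255184 to 80257541), the transcription factor of the PERK arm, was at 215, 187 and 193 CPM in muscle controls and at 404, 292 and 354 in SN-011 samples. The groups did not overlap (log2 fold change 0.82 ± 0.15, adjusted p = 0.120), and without SN-011 replicate 2 the difference passed (0.93, adjusted p = 0.0198). In the heart Atf4 was at 155, 151 and 134 against 170, 179 and 177, also without overlap and smaller in size (0.25 ± 0.11, adjusted p = 0.216). Stomach and tongue groups overlapped (0.31 ± 0.39 and 0.08 ± 0.16). Atf3 (chromosome 1, 191170296 to 191218039) in the muscle was at 5.54, 7.53 and 9.58 CPM in controls and 22.1, 12.1 and 24.6 in SN-011 samples. All SN-011 samples were higher, with replicate 2 the lowest of them (1.37 ± 0.35, adjusted p = 0.190, and 1.62, adjusted p = 0.0218, without that replicate). In the stomach Atf3 lay on the other side, at 70.6, 51.3 and 44.7 against 27.5, 26.3 and 36.5, without overlap (−0.88 ± 0.26, adjusted p = 0.104). In the heart and tongue it ranged from 16.1 to 54.8 CPM with overlapping groups, where heart control replicate 2 was the highest of the heart samples. Without that library the heart value was 1.07 (adjusted p = 0.0397), in a fit that called 787 of 16599 genes. It is also the heart library with 3185 summed CPM of gastric markers, whose part in the Atf3 value was not tested.

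Chac1 and Trib3 lie furthest downstream in the ATF4 arm. Chac1 (chromosome 2, 119351229 to 119354381) in the muscle was at 169, 303 and 119 CPM in controls and 316, 280 and 310 in SN-011 samples, so that control replicate 2 lay within the SN-011 range (0.62 ± 0.33, adjusted p = 0.453). In the stomach it had only 5 to 29 counts, at 0.267 to 1.37 CPM in controls and 1.24 to 1.78 in SN-011 samples, and the groups overlapped there, in the heart (11.5 to 25.7 CPM) and in the tongue (9.54 to 17.3 CPM). Trib3 (chromosome 2, 152337422 to 152344032) was at 24.5, 25.8 and 24.8 CPM in heart controls and 18.0, 18.7 and 24.6 in heart SN-011 samples (−0.29 ± 0.15, adjusted p = 0.284), where SN-011 replicate 3 lay among the controls. It was low in the stomach, at 1.77 to 3.36 CPM, and in the muscle, at 0 to 2.90 CPM, with overlap in both. In the tongue control replicate 3 stood apart at 30.5 CPM, above 6.93 and 12.5 in the other controls and 7.16 to 10.3 in SN-011 samples.

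Xbp1 (chromosome 11, 5520659 to 5525893) split the tongue controls. It was at 82.5, 157 and 184 CPM in control replicates 1 to 3 and at 86.2, 78.9 and 73.7 in SN-011 samples. The female control lay among the SN-011 samples, and the groups overlapped (−0.83 ± 0.28, adjusted p = 0.349). Without that control the log2 fold change was −1.10 (adjusted p = 0.00328, in a fit that called 12.5% of all genes). Hspa5 had the same split, at 168, 269 and 269 CPM in controls and 186, 178 and 156 in SN-011 samples, and gave −0.44 ± 0.20 with all samples and −0.63 (adjusted p = 0.0169) without control replicate 1. Control replicates 2 and 3 are also the 2 tongue samples with 3328 and 2554 summed CPM of gastric markers, against 15.2 to 52.9 in the other 4. They had the highest plasma cell sums of the tongue, 436 and 560 CPM, against 238 to 336. Their squamous epithelial sums were also the highest, 34391 and 50203 CPM, against 9151 to 20003. The part of gastric, plasma cell and squamous epithelial RNA in the Xbp1 and Hspa5 values was not tested. In the stomach Xbp1 was at 370, 441 and 312 against 193, 316 and 265 (−0.54 ± 0.31), in the muscle at 66.6, 57.3 and 49.1 against 78.9, 74.6 and 68.0 without overlap (0.36 ± 0.15, adjusted p = 0.335), and in the heart it overlapped (−0.06 ± 0.10).

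**Figure D3:**
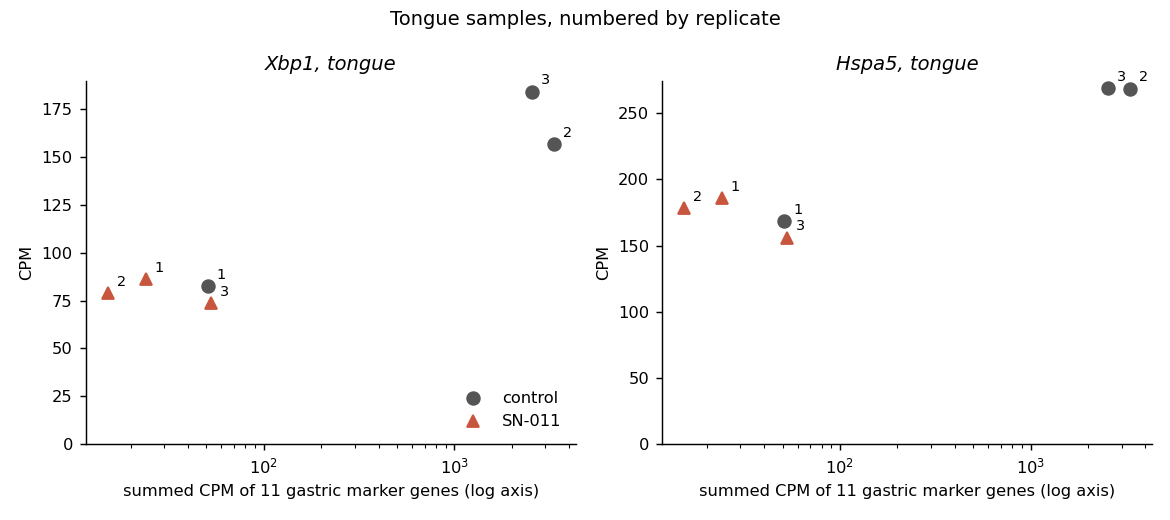
CPM of Xbp1 and of Hspa5 in the 6 tongue samples against the summed CPM of 11 gastric marker genes on a log axis, numbered by replicate. Control replicates 2 and 3 stand apart on both axes, and control replicate 1 lies with the SN-011 samples.

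Set side by side, the median log2 fold change of the 10 members was 0.49 for muscle, 0.25 for heart, −0.09 for tongue and −0.16 for stomach, where the median of all genes tested was −0.08, −0.01, −0.01 and 0.00. With 1 library left out, the median ranged from 0.35 to 0.55 for muscle, from 0.05 (without control replicate 3) to 0.31 for heart, from −0.32 (without control replicate 1) to 0.04 (without control replicate 2) for tongue, and from −0.42 (without SN-011 replicate 2) to 0.08 (without SN-011 replicate 1) for stomach, so that the sign held for muscle and heart. With total counts alone it was 0.26 for muscle, 0.11 for heart, 0.0013 for tongue and 0.012 for stomach. The log2 fold change was above 0 for 8 members in the muscle (44.5% of all genes), 6 in the heart (48.6%), 4 in the stomach (50.2%) and 3 in the tongue (48.5%). The members were higher without overlap between groups for 5 of 10 in the muscle (14.7% of all genes), 3 of 10 in the heart (14.1%), 1 in the stomach (17.8%) and 0 in the tongue (9.39%). Of the 3 members shown above with the C/EBP-ATF element, Herpud1 and Atf3 were among those 5 in the muscle and Chac1 was not. The members were lower without overlap in 1 case, Atf3 in the stomach (15.2%), and in 0 cases in heart, muscle and tongue (13.1%, 19.8% and 8.38%). Without muscle SN-011 replicate 2, 3 members were called in the muscle, Herpud1, Atf3 and Atf4, in a fit that called 7.4% of all genes.

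**Figure D4:**
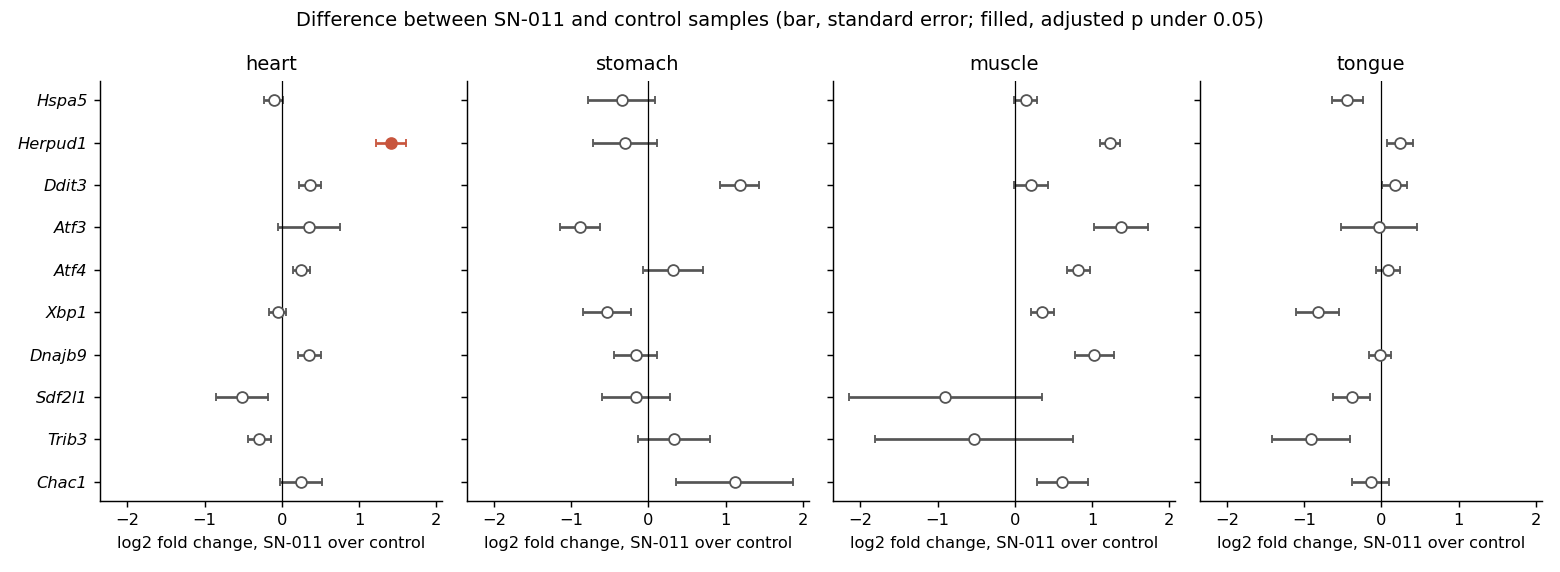
Log2 fold change of each gene, SN-011 over control, in each tissue, with bars for the standard error and a filled point where the adjusted p is under 0.05. The filled point is Herpud1 in the heart, at 1.41, and the wide bars of Sdf2l1 and Trib3 in the muscle come with a count of 0 in SN-011 replicate 2.

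Whether the response to SN-011 differed between tissues was tested as the difference between the log2 fold changes of 2 tissues in a joint fit of all 24 samples, taken as independent although same-numbered controls of different tissues correlated (mean r = 0.231). With the replicate number as a block across tissues, the same 5 differences passed. Of 60 such differences over the 10 members, 5 passed, against 1.64% of all differences tested, and 4 of the 5 were between stomach and muscle, where 6.95% of all genes passed. Herpud1 responded more in the heart than in the stomach, by 1.75 ± 0.41 (adjusted p = 0.0331), and less in the stomach than in the muscle, with a difference of −1.497 ± 0.41 (adjusted p = 0.0335). Ddit3 responded more in the stomach than in the muscle, by 1.04 ± 0.27 (adjusted p = 0.0271). Atf3 and Dnajb9 had the opposite sign for the same pair, −2.24 ± 0.67 (adjusted p = 0.0486) and −1.16 ± 0.34 (adjusted p = 0.0439). These pairs share the stomach samples and are not independent of one another. Between heart and muscle, 0 members passed at the adjusted threshold in this edgeR fit (0.00507% of all genes), and 0 at an unadjusted p under 0.05 (6.6% of all genes), and the Herpud1 responses of these tissues differed by 0.25 ± 0.41.

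The rest of the pathway was followed in 4 further lists by role. Of their 66 genes, 0 passed the adjusted threshold in any tissue by edgeR's quasi-likelihood test. At an unadjusted p under 0.05 the muscle had 15 higher and 2 lower of 62 tested (8.96% and 5.8% of all genes), the heart 7 and 9 of 66 (10.8% and 11.6%), the stomach 6 and 8 of 65 (13.2% and 11.4%), and the tongue 3 and 8 of 65 (5.17% and 7.33%). These counts depend on the scaling. Scaled by total counts alone, the muscle had 6 higher and 5 lower, the heart 5 and 18, the stomach 9 and 4, and the tongue 6 and 4. In the heart 4 then passed the adjusted threshold, all lower, where 184 of all 16151 genes were called lower and 65 higher. With tissues in that order, the exact test called 4, 6, 4 and 1 of 62, 66, 65 and 65, against 3.37%, 5.68%, 10.8% and 1.53% of all genes. DESeq2 called 7, 9, 7 and 2 of 61, 66, 65 and 65, against 6.21%, 8.43%, 14% and 2.52%. Without muscle SN-011 replicate 2, 8 were called in the muscle, all higher (3.6% of all genes were called higher and 3.8% lower), and without the female control 9 were called in the tongue, 1 higher and 8 lower (4.41% and 8.04% of all genes). The 4 sensor genes Ern1, Eif2ak3, Atf6 and Atf6b had median log2 fold changes from −0.18 in the tongue to −0.06 in the muscle, and 1 passed an unadjusted p of 0.05, Atf6b in the muscle (0.71). The sensors ranged from −0.99 to 0.71 in the muscle. Without overlap between groups, 1 was lower and 1 higher there (19.8% and 14.7% of all genes). The 19 ER chaperones and folding enzymes had a median of −0.56 in the stomach, −0.28 in the tongue, −0.17 in the heart and −0.07 in the muscle. Their log2 fold changes were below 0 for 15, 17, 17 and 11 genes in this order. Of all genes, 50.2%, 48.5%, 48.6% and 44.5% were above 0. At an unadjusted p under 0.05, 5, 2, 3 and 0 of the 19 were lower and 0, 0, 0 and 1 higher. Ero1l, the oxidase that reoxidizes protein disulfide isomerases, was at 120, 112 and 94.6 CPM in stomach controls and 35.1, 57.0 and 47.4 in SN-011 samples (−1.23 ± 0.26, adjusted p = 0.0715). All 3 SN-011 samples of the stomach were below all controls for Ero1l, as they were for 15.2% of all genes. Of the 19 genes, 4 were lower and 0 higher without overlap there. In the heart 5 were lower and 0 higher without overlap (13.1% and 14.1% of all genes). The tongue had 2 lower and 1 higher (8.38% and 9.39%), and the muscle 3 and 1 (19.8% and 14.7%). The part of cell makeup, such as the lower plasma cell markers given above, was not tested.

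Genes of ER-associated degradation and translocation had medians of −0.09, −0.18, 0.10 and −0.17 in heart, stomach, muscle and tongue, over 14, 14, 13 and 14 genes tested. The COPII coat gene Sec24d was at 48.6, 44.8 and 39.2 CPM in heart controls and 32.4, 26.9 and 27.3 in SN-011 samples (−0.62 ± 0.13, adjusted p = 0.0667). Crebrf, a regulator of the stress factor Luman, was at 35.9, 28.7 and 29.0 in muscle controls and 50.2, 61.3 and 52.7 in SN-011 samples (0.81 ± 0.15, adjusted p = 0.122). Both genes, picked for a low p, were without overlap between groups. So were 13.1% of all genes, lower, in the heart and 14.7%, higher, in the muscle. On the whole list, 3 of 14 were lower and 1 higher without overlap in the heart, and 2 and 2 of 13 in the muscle.

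The 29 ATF4 targets and genes of the integrated stress response gave medians of 0.08 (heart), −0.09 (stomach), 0.32 (muscle) and −0.02 (tongue). In the muscle the log2 fold change was above 0 for 21 of 26 tested, where 44.5% of all genes were above 0, and at an unadjusted p under 0.05, 10 were higher and 1 lower. Ppp1r15a (GADD34), which returns translation after stress, was at 110, 59.4 and 54.3 CPM in muscle controls and 236, 182 and 176 in SN-011 samples (1.41 ± 0.30, adjusted p = 0.146). Sars, a seryl-tRNA synthetase, was at 109, 99.8 and 103 against 143, 160 and 139 (0.50 ± 0.11, adjusted p = 0.146). In the stomach Atf5 was at 19.8, 26.8 and 13.5 against 67.3, 45.4 and 50.7 (1.44 ± 0.30, adjusted p = 0.0715), and Ddit4 (REDD1), an mTORC1 inhibitor that glucocorticoids and hypoxia also raise, at 21.1, 23.9 and 8.56 against 58.6, 44.3 and 68.0 (1.67 ± 0.39, adjusted p = 0.0758). Each of these genes was higher in all 3 SN-011 samples than in any control, but they were picked for a low p, which favours such separation. Of all genes, 14.7% were higher without overlap in the muscle and 17.8% in the stomach. On the whole list, 11 of 26 were higher and 2 lower without overlap in the muscle, and 5 and 3 of 28 in the stomach.

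In the heart the lowest unadjusted p on these lists belonged, with Sec24d, to Eif2ak2 and Aldh18a1. Eif2ak2 encodes the double-stranded RNA kinase PKR, which is also an interferon-induced gene, and was at 57.1, 58.0 and 69.2 CPM in controls and 46.6, 35.4 and 41.3 in SN-011 samples (−0.58 ± 0.14, adjusted p = 0.0760). Aldh18a1, of proline synthesis, was at 33.5, 31.5 and 33.3 against 25.5, 20.4 and 22.5 (−0.52 ± 0.13, adjusted p = 0.0843). Both were lower in all 3 SN-011 samples, as were 13.1% of all genes in the heart. Of the 29 genes of the ATF4 list, 3 were lower and 5 higher without overlap there. In the tongue the amino acid transporter Slc7a5 was at 128, 104 and 137 CPM against 163, 216 and 214 (0.68 ± 0.17, adjusted p = 0.271). Pycr1, of proline synthesis, was at 3.12, 3.30 and 2.50 against 0.776, 1.36 and 0.374 (−1.83 ± 0.49, adjusted p = 0.282), and Cth, of cysteine synthesis, at 3.64, 4.08 and 6.99 against 9.49, 8.60 and 10.3 (0.95 ± 0.30, adjusted p = 0.327). The 3 tongue genes, picked for a low p, did not overlap between groups and did not share a direction. In the tongue 9.39% of all genes were higher and 8.38% lower without overlap.

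**Figure D5:**
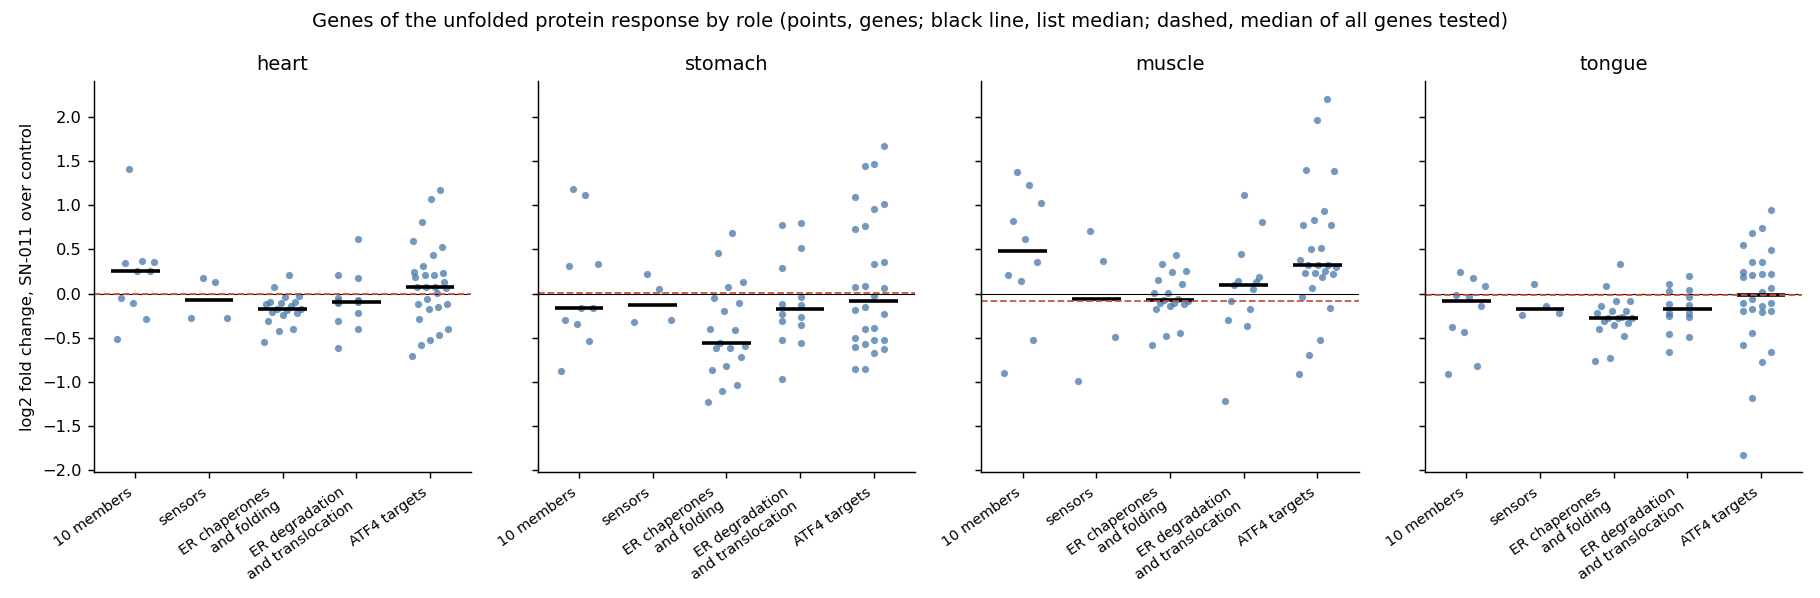
Log2 fold change, SN-011 over control, of every tested gene in the 5 lists for each tissue, with a black line at the list median and a dashed line at the median of all genes tested. Scaled by TMM, the chaperone list lies lowest in the stomach, with a median of −0.56, and the ATF4 list highest in the muscle, with a median of 0.32.

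How the members varied among samples, apart from tissue and treatment, was described by Pearson's r of log2(CPM + 1) after centring on the 8 group means, over all 24 samples, which may share mice across tissues. The median r over the 45 pairs of members was 0.32. The highest were Atf4 with Dnajb9 at 0.79 and Hspa5 with Xbp1 at 0.76, both little changed without muscle SN-011 replicate 2 (0.76 for each pair). Sdf2l1 with Trib3 was at 0.59, and at 0.19 without that library, in which both have a count of 0. Ddit3 was at −0.30 with Dnajb9 and −0.23 with Xbp1. Among 11856 genes of at least 1 CPM in every group mean, the 5 most like Hspa5 were Tmem59 at 0.86, Tmed9 at 0.86, Slc35a3 at 0.84, Spata2 at 0.84 and Ppa1 at 0.83, and the 5 most like Ddit3 were Tarbp2 at 0.78, Banp at 0.72, Ppp2r5b at 0.69, Ppip5k2 at 0.68 and Zfp568 at 0.67. No member was among the 5 most like either gene.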

How the data were processed

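Per the labels, polyA-enriched RNA was sequenced. The study's methods name Trimmomatic, hisat2 and featureCounts, whereas the submitters' processing notes name HISAT2, HTSeq and mm10. The annotation release and strand setting are not given in the sources used here. The authors deposited raw counts per Ensembl gene, without normalization, for 54532 genes, of which 54495 are in GENCODE M21 (GRCm38), used for symbols, positions and exon lengths. Models for the 6 samples of a tissue were then built with edgeR 4.0.16 under R 4.3.3. Genes were kept by filterByExpr (count of at least 10, total of at least 15), libraries were scaled by TMM, and SN-011 and control were compared by the quasi-likelihood F test. Adjusted p-values (Benjamini-Hochberg) cover every gene tested in that model, and 0.05 was the threshold. Differences between tissues came from joint fits of the 24 samples or of the 12 controls. For each tissue, genes of the wider lists past the threshold were named, or the 3 with the lowest p. The members and lists were chosen with earlier results of these data known. Alternatives included DESeq2 1.42.0, edgeR's exact test, other scalings and filters, and each sample left out. The models were tested on simulated counts. All 24 samples entered the reported values. Floors of 3 counts cover counting error alone.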

Additional observations from a re-analysis of the deposited data

Results flagged for a closer look

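Of 60 differences between tissues in the response of the 10 genes to SN-011, 5 passed an adjusted p of 0.05 in the joint edgeR fit, each by a test of the difference itself. Of all differences tested, 1.64% passed. Between stomach and muscle 6.95% of all genes passed, and between heart and stomach 2.01%. For Herpud1, the log2 fold change in the heart exceeded that in the stomach by 1.75 (adjusted p = 0.0331), and it passed in 15 of 24 fits that each left out 1 library, with values of 1.36 to 2.08. The stomach minus muscle difference of Herpud1 was −1.497 (adjusted p = 0.0335) and passed in 16 of 24, between −1.83 and −1.11. Ddit3 had the opposite sign for the same pair, at 1.04 (adjusted p = 0.0271), and passed in 19 of 24, between 0.85 and 1.20. Atf3 at −2.24 (adjusted p = 0.0486) passed in 6 of 24 and Dnajb9 at −1.16 (adjusted p = 0.0439) in 5 of 24, both near the threshold. With no filter on low counts, the differences of Ddit3 (adjusted p = 0.0798) and Dnajb9 (adjusted p = 0.0821) were lost. Without muscle SN-011 replicate 2, the library with few genes, all 5 passed, with adjusted p of 0.0194 to 0.0423. The stomach samples are shared by all 5 differences.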

How the results depend on the processing

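The number of genes called depended strongly on the test, and with it the calls of single members. In the heart 137 genes were called, and 249 with total counts alone, 1888 with no filter on low counts, 265 with at least 10 counts in every sample, 1361 by DESeq2, 918 by the exact test, 242 with the replicate block and 1 in the joint fit. In the stomach 0 were called, and by the same changes 1368 (no filter), 126 (at least 10 counts), 2389 (DESeq2), 1835 (exact), 181 (block) and 2738 (joint). In the muscle 2 were called, and 1 with DESeq2 size factors, 1 with total counts alone, 110, 75, 880, 479, 0 (block) and 474 in the order given for the stomach. In the tongue 0 were called, and 18 with no filter, 418 by DESeq2, 253 by the exact test and 4 in the joint fit. With 1 library left out the counts were 0 to 2135 (tongue), 0 to 1103 (muscle), 0 to 64 (stomach) and 1 to 787 (heart). The extremes came without heart SN-011 replicate 2 and heart control replicate 2, without stomach control replicate 1, without muscle SN-011 replicate 2 and without tongue control replicate 1. Of the members' differences between tissues, 5 passed, 3 with no filter and 0 to 6 with 1 library left out. The count was 0 without stomach control replicate 1 and also without stomach SN-011 replicate 3. It was 1 without muscle control replicate 2, muscle control replicate 3, muscle SN-011 replicate 1 or stomach SN-011 replicate 1. The members' control tissue pairs past the threshold numbered 35, and 32 to 37 with 1 library left out. Over 57 single-gene results and 909 alternative values, 762 kept their direction and side of the threshold, 62 were newly past it, 65 no longer past it and 20 changed sign, none of these past the threshold either way. With total counts alone the log2 fold change turned to −0.097 (Hspa5, muscle), −0.025 (Ddit3, muscle), 0.054 (Atf3, tongue), 0.055 (Dnajb9, stomach) and 0.063 (Dnajb9, tongue). With 1 library left out, values lay between −0.64 and 0.037 for Herpud1 in the stomach, −0.61 and 0.54 for Atf3 in the tongue, −0.022 and 0.60 for Atf4 in the stomach, −0.0085 and 0.19 for Atf4 in the tongue, −0.42 and 0.039 for Dnajb9 in the stomach, −0.11 and 0.023 for Dnajb9 in the tongue, −0.81 and 0.21 for Sdf2l1 in the stomach, −1.23 and 0.038 for Trib3 in the muscle, and −0.34 and 0.073 for Chac1 in the tongue. The cause of these changes was not tested, except that leaving out a library leaves fewer samples.

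Within a tissue, the replicate numbers did not pair control with SN-011 samples, whose deviations correlated, where the numbers were the same, at a mean of −0.261 for tongue, −0.022 for heart, 0.036 for muscle and 0.061 for stomach. Between tissues, same-numbered controls correlated at a mean of 0.231 (−0.136 to 0.494, over 0.1 in 14 of 18 pairs), against −0.112 for unlike numbers, and same-numbered SN-011 samples at 0.0618 against −0.0301. A control correlated best with its own number in 30 of 36 cases, a hint from the data, not from the labels, that the numbers tie controls across tissues. The replicate block changed the call of 0 of the 57 single-gene results, the 5 differences between tissues included, and of 3 of the 60 control tissue pairs (1 lost and 2 newly called, with 36 past the threshold). Depth limits Chac1 in the stomach, at 5 to 29 counts. Sdf2l1 and Trib3 were at 0 counts in muscle SN-011 replicate 2, the library with only 11546 genes detected. Its total of 14253416 counts was near the 14392199 of heart control replicate 2, in which 23647 genes were detected.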
